A study of Mus musculus with 12 samples.

Results

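The 7 genes described here encode small heat shock proteins of muscle: Hspb1, Hspb2, Hspb3, Hspb6, Hspb7, Hspb8 and Cryab. They were taken by gene symbol from the deposited tables, and all 7 were found among the 16288 genes listed in any library. Their RNA was measured in C2C12 cells, an immortalized mouse myoblast line that fuses into myotubes when serum is reduced. The 12 libraries form 6 groups of 2, labelled A and B, at 3 stages: proliferating cells in growth medium (GM), and cells 24 h (DM 24h) or 48 h (DM 48h) after a change to differentiation medium with horse serum and insulin. At each stage 1 group received DMSO, the vehicle, and the other 50 uM PFI-3, a small molecule that occupies the bromodomains of BRM, BRG1 and PBRM1, subunits of SWI/SNF chromatin remodellers. All groups were exposed to their agent for 12 h before harvest or before induction, and in the DM groups the agent was renewed every 24 h. All cells are of the same line, and no genetic change separates the groups. The libraries are called biological duplicates by the submitters, with no word on whether they came from separate cultures, so p-values measure only the spread between these libraries.

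Small heat shock proteins are chaperones that hold unfolding proteins in solution without using ATP. They share an alpha-crystallin domain and assemble into oligomers, often of more than 1 family member, and they hand clients on to Hsp70 or, through the co-chaperone BAG3, to autophagy. In muscle they are known for protecting actin, desmin, titin and filamin under mechanical load. Several members are made mainly in striated muscle, and the paired HSPB2 and HSPB3 proteins are known to be induced when myoblasts differentiate.

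Total expected counts were 12576374 to 13658352 per library. Hspb3 was listed in 8 libraries, being absent from the 4 GM libraries, and the other genes in all 12. All 7 passed the low-count filter, which kept 12545 genes, and Hspb3 and Hspb7 passed through the DM groups alone. The library pairs differed in tightness: over 10367 genes, log2 ratios between the libraries of a pair had an SD of 0.361 and 0.325 in GM and of 0.137 to 0.154 in the DM groups, so GM comparisons carry more error. The reported fit shares its estimate of the spread among all groups, so its GM standard errors and p-values do not fully reflect this. Myoblast markers (Myod1, Myf5, Pax7 and Des) were present at every stage, with a summed level of 461 to 728 CPM in GM. CPM stands for a count divided by the TMM-scaled library total and brought to a common scale. Of the markers of other cell types, Ptprc, Adgre1, Cd3e, Adipoq, Plin1 and Cidec were at or near 0. Others were present: group means over the 6 groups were 60.7 to 151 CPM for the osteoblast marker Runx2 and 43.3 to 92.4 CPM for the pericyte marker Cspg4. The adipocyte marker Pparg stood at 3.13 to 19.8 CPM and the immune marker Cd68 at 1.25 to 6.96 CPM, each highest in GM. The other osteoblast markers, Sp7, Bglap, Ibsp and Alpl, were at 0 to 0.47 CPM. Of the other smooth muscle and pericyte markers, Cnn1 stood at 0.61 to 22.4 CPM and Myh11 and Rgs5 at 0 to 1.06 CPM. The sums given below for the osteoblast, adipocyte and immune lists thus come almost wholly from Runx2, Pparg and Cd68.

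The promoters of the genes are shown first for Hspb3 and Hspb7, which were at or near 0 in GM and rose late, and for Hspb1, which followed another course. RefSeq (GRCm38.p6) windows from 250 bases before to 50 after a start matched 5 of the 7 genes by symbol, with 2 windows for Hspb6. The 250 bases before the start are printed 5′ to 3′ on the gene's strand, and capitals mark matches to the motifs searched.
Hspb3, minus strand, chr13:113663677-113663926: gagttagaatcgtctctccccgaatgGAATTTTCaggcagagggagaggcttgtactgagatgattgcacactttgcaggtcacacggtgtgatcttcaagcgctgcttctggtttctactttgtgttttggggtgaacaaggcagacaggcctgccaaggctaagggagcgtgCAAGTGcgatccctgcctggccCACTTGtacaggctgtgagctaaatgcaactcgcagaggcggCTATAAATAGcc
Hspb7, plus strand, chr4:141420529-141420778: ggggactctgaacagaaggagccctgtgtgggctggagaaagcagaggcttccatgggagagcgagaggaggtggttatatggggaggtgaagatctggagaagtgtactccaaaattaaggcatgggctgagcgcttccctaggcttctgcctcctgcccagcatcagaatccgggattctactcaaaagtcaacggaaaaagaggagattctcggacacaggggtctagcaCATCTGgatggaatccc
Hspb1, plus strand, chr5:135887669-135887918: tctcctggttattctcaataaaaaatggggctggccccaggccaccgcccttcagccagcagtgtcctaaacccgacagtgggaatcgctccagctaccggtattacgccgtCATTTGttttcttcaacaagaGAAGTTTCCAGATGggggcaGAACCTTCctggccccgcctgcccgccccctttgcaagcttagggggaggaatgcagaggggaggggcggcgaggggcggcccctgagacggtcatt
The motifs, searched on both strands of the whole window, were the heat shock element pairs GAANNTTC and TTCNNGAA, the E-box CANNTG bound by MyoD and myogenin among others, the TATA box TATAAA, and the MEF2 and CArG consensus sequences by name. Offsets give a match's first base relative to the start. Hspb3 held GAANNTTC at -224, E-boxes at -76 and -54, and a TATA box at -11 that lies inside a MEF2 consensus match at -12. Hspb7 held a single E-box at -17. Hspb1 held GAANNTTC at -117 and -97 and E-boxes at -138 and -109, the latter directly after the first heat shock element. Hspb8, on the minus strand of chromosome 5, held GAANNTTC at 2 bases after its start and an E-box at -132. The upstream Hspb6 window held no match, and the downstream one, which begins at base 30553051 of chromosome 7, held GAANNTTC at -120 and TATAAA at -29. Over all 32851 windows, 7.86% held GAANNTTC, 8.52% TTCNNGAA, 72.3% an E-box, 13.6% TATAAA, 3.19% the MEF2 consensus and 1.63% the CArG consensus. A match is a description of letters and was not tested as a site. The map of matches shows that the heat shock element lies in Hspb1, Hspb3, Hspb8 and the downstream Hspb6 window, and in no case in Hspb7.

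**Figure D1:**
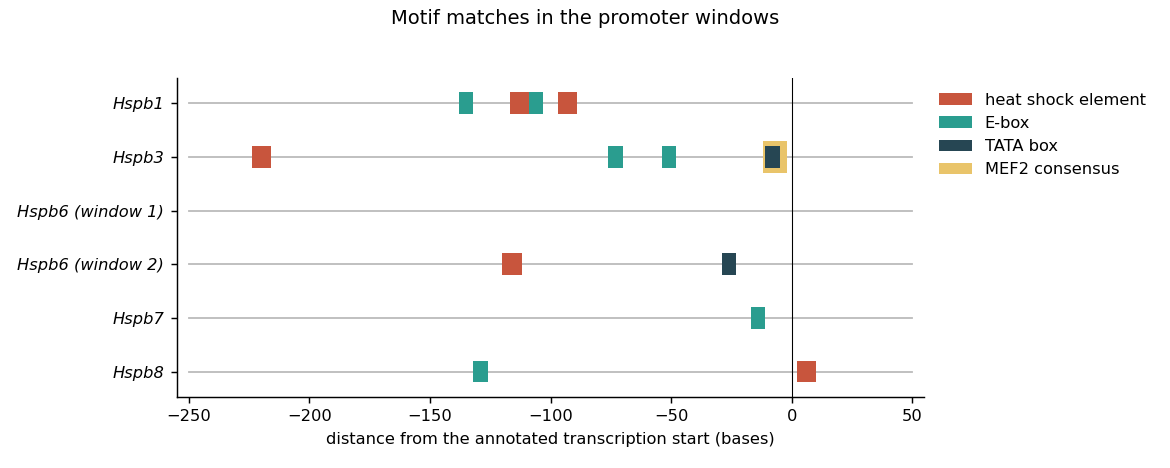
Positions of motif matches in the 6 RefSeq promoter windows of 5 genes, as distance in bases from the annotated transcription start (vertical line), with colour giving the motif. Hspb3 carries matches to 4 motifs, Hspb7 to the E-box alone.

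In DMSO-treated cells the family changed its make-up during differentiation. Hspb2, Hspb3, Hspb7, Hspb8 and Cryab rose at both steps, Hspb6 fell at both, and Hspb1 dipped at DM 24h and returned at DM 48h. From GM to DM 24h, 5 of the 7 were called higher and 2 lower, where called means an edgeR adjusted p under 0.05, against 30.6% of all 12545 genes higher and 30.0% lower. From GM to DM 48h, 5 were called higher and 1 lower, against 37.2% and 35.9% of all genes. Between DM 24h and DM 48h, 6 were called higher and 1 lower, against 24.2% and 23.9%. The median log2 change of the 7 was 0.61, 1.72 and 1.19 in these comparisons, beside medians over all genes of 0.02, 0.03 and 0.00; the first 2 medians are Cryab's own values and stay so with Hspb3 and Hspb7 at the bounds given below. Hspb3 and Hspb7 passed the filter only where they were high, so their calls against GM had to follow and support nothing. The comparisons share their DMSO groups and are not independent. In bulk RNA, fewer cells of a type and less RNA per cell cannot be told apart.

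**Figure D2:**
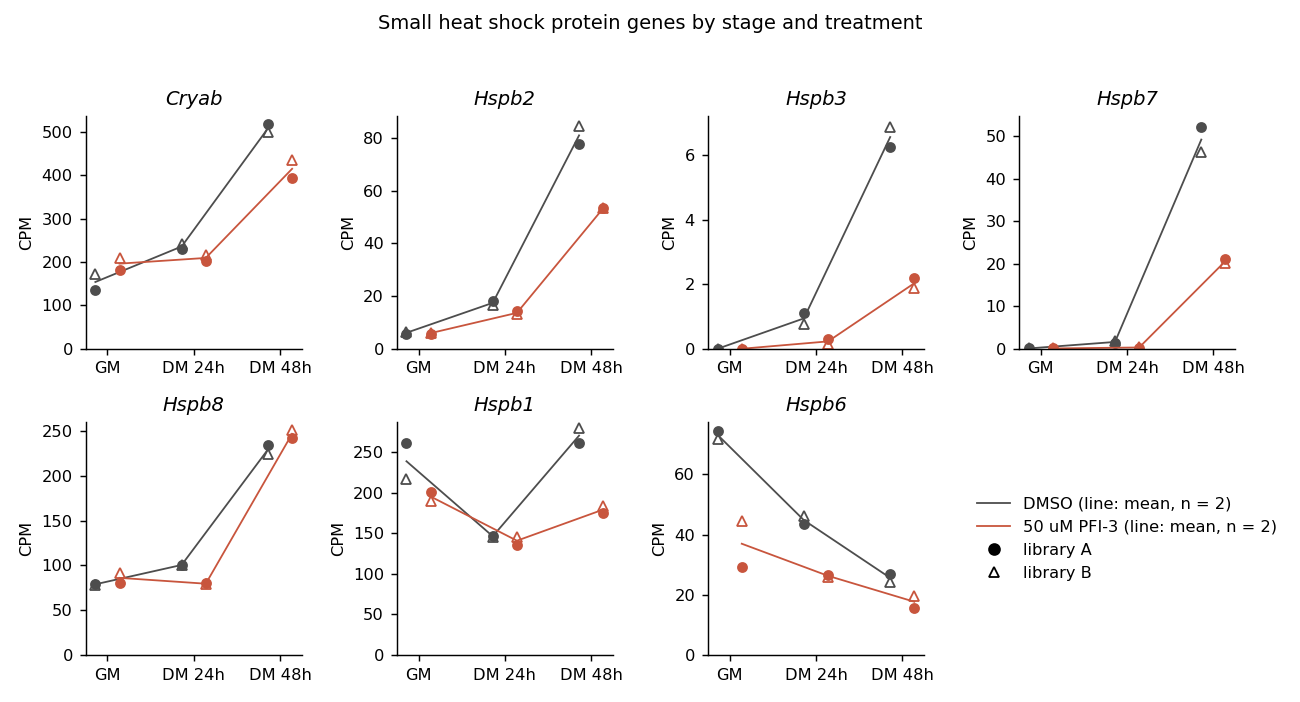
Level of each gene (CPM, linear axis from 0, a separate scale for each gene) by stage, with library A as filled circles, library B as open triangles and a line through the group means (n = 2); DMSO is grey and PFI-3 red. Hspb7 climbs from 1.60 to 49.2 CPM between DM 24h and DM 48h in DMSO and to 20.6 CPM with PFI-3.

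Hspb7 (NCBI Gene 29818, chr4:141420779-141425310, plus strand, GRCm38), a chaperone of heart and skeletal muscle known to associate with filamin C, had the steepest course. Its expected count was 1 in each of the 4 GM libraries. In DMSO it was 18 and 23 at DM 24h, and by DM 48h it was 641 and 566. These equal 1.43 and 1.78 CPM at DM 24h and 52.1 and 46.3 CPM at DM 48h. No library of a later DMSO group overlapped an earlier one. The summed counts gave a ratio to GM of 21.1 at DM 24h (95% exact counting interval 5.48 to 180.2) and of 647 at DM 48h (179 to 5352), intervals that cover counting error only, because PCR copies without molecular identifiers are not independent molecules. The step from DM 24h to DM 48h was 4.93 ± 0.18 (SE) on the log2 scale (edgeR adjusted p = 1.03e-09).

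Hspb3 (NCBI Gene 56534, chr13:113662896-113663676, minus strand), which forms a complex with HSPB2, was listed in no GM library, and a floor of 3 counts per library was used for bounds. Its expected count in DMSO was 14 and 10 at DM 24h, and by DM 48h it was 77 and 84. Its CPM was 0.942 ± 0.237 (SD, n = 2) and then 6.57 ± 0.431 (SD, n = 2). The level in DMSO was at least 4.13-fold higher than in GM at DM 24h and at least 28.8-fold higher at DM 48h. The last step was 2.79 ± 0.31 on the log2 scale (edgeR adjusted p = 3.97e-05). Hspb3 was the least abundant of the 7 genes per length at DM 48h, at 8.55 and 9.31 FPKM (fragments scaled by transcript length and by library size).

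Hspb2 (NCBI Gene 69253, chr9:50751072-50752354, minus strand) encodes a binding protein of the myotonic dystrophy kinase DMPK. In DMSO it stood at 5.72 and 6.42 CPM in GM, 18.1 and 16.8 CPM at DM 24h, and 77.7 and 84.4 CPM at DM 48h. The 3 groups were well separated. The log2 change from GM was 1.52 ± 0.11 at DM 24h (edgeR adjusted p = 3.19e-07) and 3.73 ± 0.10 at DM 48h (edgeR adjusted p = 1.58e-11).

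Cryab (NCBI Gene 12955, chr9:50745951-50756636, plus strand), the alpha-B crystallin that binds desmin, stood in DMSO at 135 and 173 CPM in GM. It reached 229 and 243 CPM at DM 24h and 517 and 499 CPM at DM 48h. Each stage lay above the one before it in every library. The log2 change from GM was 0.61 ± 0.11 at DM 24h (edgeR adjusted p = 0.000421) and 1.72 ± 0.11 at DM 48h (edgeR adjusted p = 3.1e-08).

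Hspb8 (NCBI Gene 80888, chr5:116408491-116422864, minus strand), the partner of BAG3 in chaperone-assisted selective autophagy, stood in DMSO at 79.3 and 78.5 CPM in GM. It reached 101 and 100.2 CPM at DM 24h and 235 and 224 CPM at DM 48h. Most of its rise thus fell in the second day. The log2 change from GM was 0.35 ± 0.07 at DM 24h (edgeR adjusted p = 0.00104) and 1.54 ± 0.07 at DM 48h (edgeR adjusted p = 1.37e-09).

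Hspb1 (NCBI Gene 15507, chr5:135887919-135889563, plus strand), the actin-regulating chaperone also called Hsp25 or Hsp27, took a different course. In DMSO it stood at 261 and 217 CPM in GM, 147 and 146 CPM at DM 24h, and 262 and 280.1 CPM at DM 48h. It fell by 0.71 ± 0.09 on the log2 scale to DM 24h (edgeR adjusted p = 2.26e-05) and rose by 0.89 ± 0.09 to DM 48h (edgeR adjusted p = 4.78e-06). DM 48h and GM did not differ beyond the threshold (log2 change 0.18 ± 0.09, edgeR adjusted p = 0.0754), although both DM 48h libraries lay above both GM libraries. Without library A of the GM DMSO group that comparison was called, with an edgeR adjusted p of 0.00169.

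Hspb6 (NCBI Gene 243912, chr7:30552535-30555443, plus strand), the Hsp20 protein phosphorylated by cyclic-nucleotide-dependent kinases in muscle, fell throughout. In DMSO it stood at 74.4 and 71.9 CPM in GM, 43.4 and 46.1 CPM at DM 24h, and 26.9 and 24.3 CPM at DM 48h. No stage overlapped the next. The log2 change from GM was -0.71 ± 0.15 at DM 24h (edgeR adjusted p = 0.00148) and -1.51 ± 0.16 at DM 48h (edgeR adjusted p = 2.73e-06).

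Compared per length, in FPKM, Hspb1 and Cryab held most of the family's RNA at every stage. In GM with DMSO the order was Hspb1 (293 and 257 FPKM), Cryab (141 and 193), Hspb6 (53.4 and 54.5), Hspb8 (42.5 and 44.5), Hspb2 (8.04 and 9.03) and Hspb7 (0.03 in each library), with Hspb3 not listed. All neighbours in this order were separated in both libraries. At DM 48h with DMSO, Cryab led (572 and 551 FPKM), followed by Hspb1 (300.5 and 320), Hspb8 (129 and 123), Hspb2 (93.6 and 103), Hspb6 (19.8 and 17.8), Hspb7 (18.5 and 16.4) and Hspb3. Here Hspb6 and Hspb7 overlapped. From GM to DM 48h, the share of Hspb1 in the summed FPKM of the 7 genes went from 50.2% to 27.2%, that of Cryab from 30.5% to 49.2% and that of Hspb2 from 1.56% to 8.62%. With DMSO the FPKM summed to 538 and 558 in GM, to 553 and 562 after 24 h and to 1142 and 1140 after 48 h. The total thus differed little between GM and DM 24h while its make-up shifted, and was higher at DM 48h in both libraries.

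**Figure D3:**
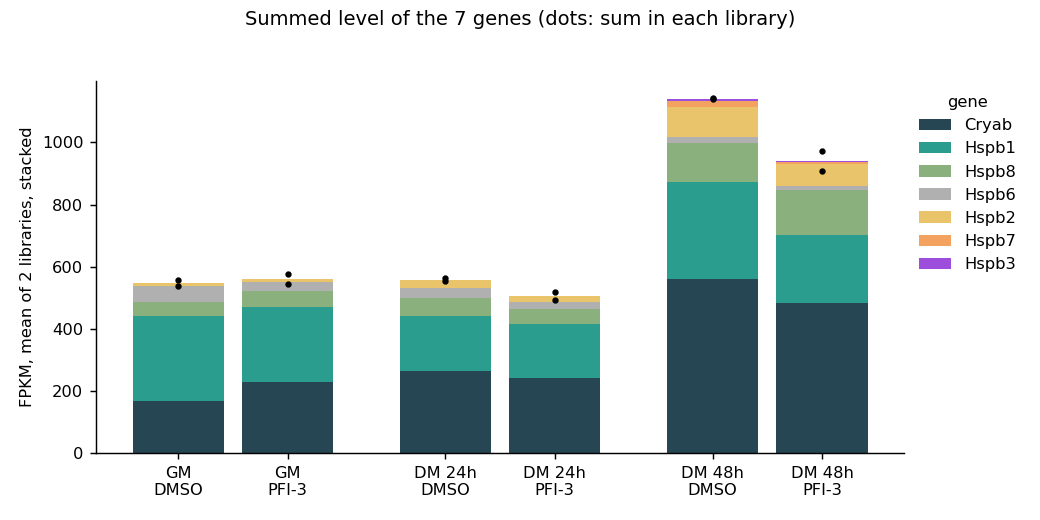
Summed level of the 7 genes in FPKM (stacked means of 2 libraries, axis from 0) by stage and treatment, with dots for the sum in each library and colour giving the gene. With PFI-3 at DM 48h the sums of 909 and 972 FPKM lie under the DMSO sums of 1142 and 1140 FPKM, and over all groups at the earlier stages.

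In GM, PFI-3 lowered Hspb6 most clearly, while Cryab, Hspb2 and Hspb8 did not pass the test. The comparison asks what PFI-3 does to the genes before differentiation is induced. By edgeR, 2 of the 7 genes were called lower and 0 higher, against 6.15% of all genes called lower. The median log2 change of the 5 genes with a usable fold was that of Hspb2, -0.03, beside -0.01 over all genes. Hspb3 (0 counts) and Hspb7 (1 count in each library) allow no fold in GM. The 4 myoblast markers, most of it Des, summed to 658 to 728 CPM with DMSO and 461 to 606 CPM with PFI-3. The osteoblast markers summed to 146 to 155 and 128 to 129 CPM. The smooth muscle and pericyte markers summed to 94.3 to 135 and 88.9 to 98.4 CPM, with 1 of the 3 tested called lower. Among them, Cnn1 had group means of 22.4 CPM with DMSO and 5.67 CPM with PFI-3, and Cspg4 of 92.4 and 88.0 CPM. Their part in the result was not tested.

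Hspb6 stood at 74.4 and 71.9 CPM with DMSO and 29.2 and 44.7 CPM with PFI-3 in GM. Both PFI-3 libraries were below both DMSO libraries, though they differed from each other. The log2 change was -0.98 ± 0.15 (edgeR adjusted p = 0.00208), and with only the 4 GM libraries in the fit the edgeR adjusted p was 0.167. Hspb1 stood at 261 and 217 CPM with DMSO and 202 and 189.6 CPM with PFI-3. Its log2 change of -0.29 ± 0.09 was barely past the threshold (edgeR adjusted p = 0.0487). The call was lost when any of 11 of the 12 libraries was left out (edgeR adjusted p 0.0591 to 0.238, all except library B of GM DMSO), and without library A of GM DMSO the log2 change was -0.15.

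Cryab lay the other way in GM, at 135 and 173 CPM with DMSO and 182 and 210.0 CPM with PFI-3. The groups did not overlap, and the log2 change of 0.35 ± 0.11 missed the threshold (edgeR adjusted p = 0.0601). It passed with the DESeq2 Wald test (adjusted p = 0.0328), with limma on FPKM (adjusted p = 0.0393 at a pseudocount of 1) and, with edgeR, without library B of GM DMSO (adjusted p = 0.00176) or library A of GM PFI-3 (adjusted p = 0.0376). In that limma fit the median log2 change over all genes was 0.063. Hspb8 (log2 change 0.13 ± 0.07, edgeR adjusted p = 0.268) and Hspb2 (-0.03 ± 0.13, edgeR adjusted p = 0.917) did not pass.

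At DM 24h, Hspb7 and Hspb3 were lower with PFI-3 by the largest folds, Hspb6 next, and Hspb2 and Hspb8 by smaller ones. Cryab and Hspb1 did not pass the test. Of the 7 genes, 5 were called lower and 0 higher, against 11.4% of all genes called lower. The median log2 change of the 7 was -0.35, beside 0.00 over all genes. The 6 differentiated muscle markers (Myog, Myh3, Ckm, Acta1, Tnnt3 and Mymk) were also all called lower here, with summed levels of 2363 and 2372 CPM in DMSO and 973 and 981 CPM with PFI-3, and their part in the result was not tested. The 4 myoblast markers, most of it Des, summed to 1271 and 1277 CPM in DMSO and 1041 to 1055 CPM with PFI-3. Of these markers, Myf5 lay the other way, with group means of 40.9 CPM in DMSO and 48.9 CPM with PFI-3. Other lists were also apart: the smooth muscle and pericyte markers summed to 58.3 to 61.0 CPM in DMSO and 47.5 to 49.4 CPM with PFI-3, the osteoblast markers to 109 to 111 and 89.6 to 101 CPM, and the cardiac markers to 2.58 to 2.99 and 1.38 to 2.28 CPM. Of the cardiac markers, Tnni3 was higher with PFI-3, with group means of 0.667 CPM in DMSO and 0.838 CPM with PFI-3. The adipocyte markers also lay higher with PFI-3, at 3.17 CPM in each DMSO library and 4.19 to 5.17 CPM with PFI-3. So did the immune markers, at 0.872 to 1.70 and 2.44 to 2.75 CPM. Their part was not tested.

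Hspb7 counted 18 and 23 with DMSO and 2 and 6 with PFI-3 at DM 24h. The PFI-3 level was 19.0% of that in DMSO, a log2 change of -2.36 ± 0.39 (edgeR adjusted p = 0.00129). Hspb3 counted 14 and 10 with DMSO and 4 and 2 with PFI-3, a log2 change of -1.996 ± 0.531 (edgeR adjusted p = 0.0222). Groups did not overlap for either gene, but the counts are small: the Hspb3 call was lost with DESeq2 (adjusted p = 0.0571) and, with edgeR, without DM 24h library A of DMSO, A of PFI-3 or B of PFI-3 (adjusted p 0.0634 to 0.141). On the log2(FPKM + 1) scale, which understates changes of low genes, the log2 changes of Hspb7 and Hspb3 were -0.51 and -0.81.

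Hspb6 stood at 43.4 and 46.1 CPM with DMSO and 26.6 and 26.0 CPM with PFI-3 at DM 24h. The separation was wide against the spread within groups, with a log2 change of -0.77 ± 0.16 (edgeR adjusted p = 0.00509). Hspb8 stood at 101 and 100.2 CPM with DMSO and 80.1 and 79.1 CPM with PFI-3, a log2 change of -0.34 ± 0.07 (edgeR adjusted p = 0.00515). Hspb2 stood at 18.1 and 16.8 CPM with DMSO and 14.2 and 13.1 CPM with PFI-3. Its groups did not overlap, and the log2 change was -0.35 ± 0.10 (edgeR adjusted p = 0.0238). That call was lost with DESeq2 (adjusted p = 0.082), with limma on log2(FPKM + 1) (log2 change -0.20, adjusted p = 0.0803), and without any of the 4 DM 24h libraries (edgeR adjusted p 0.0615 to 0.152).

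Cryab stood at 229 and 243 CPM with DMSO and 202 and 217 CPM with PFI-3 at DM 24h. The groups did not overlap, and the log2 change was -0.17 ± 0.11 (edgeR adjusted p = 0.283; 0.00152 in a fit of the 4 DM 24h libraries alone). Hspb1 overlapped between groups, at 147 and 146 CPM with DMSO and 136 and 146 CPM with PFI-3 (log2 change -0.05 ± 0.09, edgeR adjusted p = 0.697).

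**Figure D4:**
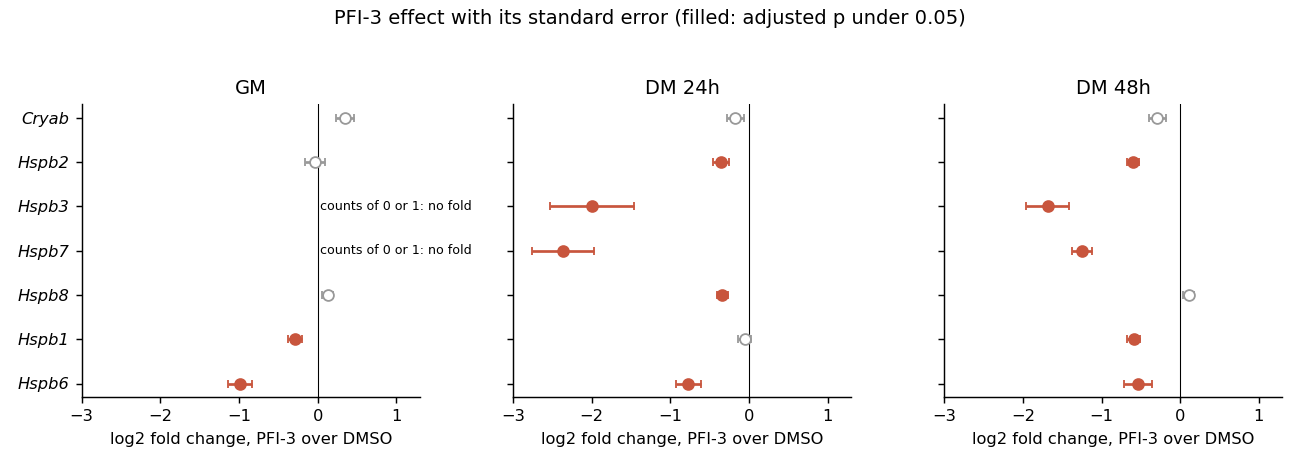
Log2 fold change of PFI-3 over DMSO with its standard error for each gene, with a panel per stage (edgeR, n = 2 per group); filled red points have an adjusted p under 0.05, open points do not. Hspb7 and Hspb3 lie farthest to the left at both DM stages, and Hspb6 is filled at all 3 stages.

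At DM 48h, Hspb3, Hspb7, Hspb2, Hspb1 and Hspb6 were lower with PFI-3, and Hspb8 and Cryab did not pass the test. Again 5 of 7 genes were called lower and 0 higher, against 14.0% of all genes called lower. The median log2 change of the 7 was -0.59, beside 0.00 over all genes. The differentiated muscle markers summed to 16373 and 16415 CPM in DMSO and 10778 and 11008 CPM with PFI-3, again with all 6 called lower, and their part in the result was not tested. The 4 cardiac markers, of which Nppa was at 0, summed to 17.6 to 19.4 CPM in DMSO and 9.32 to 13.0 CPM with PFI-3, most of it Myh6, and the 4 smooth muscle and pericyte markers, most of it Cspg4, to 63.6 to 65.9 and 41.7 to 47.2 CPM. Of the cardiac markers, Tnni3 and Nkx2-5 lay the other way. Their group means were 1.10 and 0.977 CPM in DMSO and 1.45 and 1.02 CPM with PFI-3. The myoblast markers, most of it Des, summed to 2747 to 2858 CPM in DMSO and 2298 to 2397 CPM with PFI-3. The adipocyte markers lay the other way, at 3.11 to 3.58 CPM in DMSO and 4.93 to 6.32 CPM with PFI-3. Pparg, the only adipocyte marker tested, was called higher. Their part was not tested either.

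Hspb7 stood at 52.1 and 46.3 CPM with DMSO and 21.1 and 20.2 CPM with PFI-3 at DM 48h, which is 42.0% of the DMSO level. The log2 change was -1.25 ± 0.13 (edgeR adjusted p = 2.18e-05). Hspb3 stood at 6.26 and 6.87 CPM with DMSO and 2.19 and 1.87 CPM with PFI-3. The groups were far apart, with a log2 change of -1.69 ± 0.27 (edgeR adjusted p = 0.00131). Both genes had nevertheless left their GM levels in PFI-3-treated cells: Hspb7 by a ratio of 287 (95% exact counting interval 79.0 to 2374) and Hspb3 by at least 9.42-fold.

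Hspb2 stood at 77.7 and 84.4 CPM with DMSO and 53.4 and 53.3 CPM with PFI-3 at DM 48h. Its log2 change was -0.60 ± 0.08 (edgeR adjusted p = 0.000176). Hspb1 stood at 262 and 280.1 CPM with DMSO and 175 and 184 CPM with PFI-3, a log2 change of -0.59 ± 0.09 (edgeR adjusted p = 0.000326). Both differences exceeded the spread within groups and kept their calls under every alternative run. Hspb6 stood at 26.9 and 24.3 CPM with DMSO and 15.7 and 19.6 CPM with PFI-3. Its log2 change was -0.53 ± 0.18 (edgeR adjusted p = 0.0404), a call lost without any of the 8 DM libraries (edgeR adjusted p 0.0539 to 0.266) and with limma on log2(FPKM + 1) (adjusted p = 0.0686).

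Cryab stood at 517 and 499 CPM with DMSO and 394 and 436 CPM with PFI-3 at DM 48h. The groups did not overlap, and the log2 change of -0.29 ± 0.11 missed the threshold (edgeR adjusted p = 0.0618). It passed with DESeq2 (adjusted p = 0.039), in a fit of the 4 DM 48h libraries (edgeR adjusted p = 3.18e-05), and without any of the 4 GM libraries (edgeR adjusted p 0.00679 to 0.0385). Hspb8 was the member with the higher level in both PFI-3 libraries, 243 and 251 CPM against 235 and 224 CPM with DMSO. Its log2 change of 0.11 ± 0.07 did not pass (edgeR adjusted p = 0.274), and with limma on log2(FPKM + 1) it was 0.19 (adjusted p = 0.0408). The median log2 change over all genes in that limma fit was 0.071.

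Set against the course in DMSO, the PFI-3 levels at DM 48h lay between the DMSO levels of DM 24h and DM 48h for Hspb1, Hspb2, Hspb3, Hspb7 and Cryab. The rise from DM 24h to DM 48h in PFI-3-treated cells, in CPM, was 30.9% of that in DMSO for Hspb1, 32.1% for Hspb3, 42.7% for Hspb7, 62.5% for Hspb2 and 75.4% for Cryab. For Hspb8 it was 129.8%, starting from a lower level at DM 24h. Hspb6, which fell in DMSO, was under the DMSO level throughout: PFI-3-treated cells held 50.5% of it in GM, 58.7% after 24 h and 69.0% after 48 h.

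Differences of the PFI-3 effect between stages were tested with interaction contrasts, as the stage comparison calls for. From GM to DM 24h, 1 of 7 genes was called, against 3.37% of all genes: the effect on Hspb8 was lower by 0.46 ± 0.10 on the log2 scale (edgeR adjusted p = 0.0293). The difference for Cryab was -0.52 ± 0.15, which missed the threshold with edgeR (adjusted p = 0.0908) and passed it with DESeq2 (adjusted p = 0.0232). Without library B of GM DMSO it was -0.72 (edgeR adjusted p = 0.00321). From GM to DM 48h, 2 of 7 were called, against 14.5% of all genes. These were Cryab, whose effect went from 0.35 to -0.29, a difference of -0.64 ± 0.15 (edgeR adjusted p = 0.0156), and Hspb2, with a difference of -0.57 ± 0.15 (edgeR adjusted p = 0.028). From DM 24h to DM 48h, 2 of 7 were called, against 12.1% of all genes. Hspb1 went from -0.05 to -0.59, a difference of -0.54 ± 0.12 (edgeR adjusted p = 0.0139). Hspb8 went from -0.34 to 0.11, a difference of 0.44 ± 0.10 (edgeR adjusted p = 0.0114). For Hspb6 the effect did not differ past the threshold between any stages (edgeR adjusted p 0.227 to 0.684). Its difference between DM 48h and GM was 0.45, and ran from 0.18 to 0.79 with 1 library left out. Hspb7 and Hspb3 could be compared between DM 24h and DM 48h only, and their differences of 1.11 ± 0.43 (edgeR adjusted p = 0.131) and 0.31 ± 0.57 (edgeR adjusted p = 0.787) did not pass. The direction depends on the scale: with limma on log2(FPKM + 1) the differences were -0.56 for Hspb7 (adjusted p = 0.0179) and -0.52 for Hspb3 (adjusted p = 0.0699).

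Averaged over the 3 stages in an additive model, 5 genes were called lower with PFI-3 and 0 higher, against 12.9% of all genes called lower. The average log2 change was -1.75 ± 0.24 for Hspb3 (edgeR adjusted p = 0.00103) and -1.37 ± 0.17 for Hspb7 (edgeR adjusted p = 0.000175), which rest on the DM stages, since neither gene has a usable fold in GM. It was -0.78 ± 0.11 for Hspb6 (edgeR adjusted p = 0.000322), -0.39 ± 0.09 for Hspb2 (edgeR adjusted p = 0.00629) and -0.31 ± 0.08 for Hspb1 (edgeR adjusted p = 0.0152). With limma on log2(FPKM + 1) the Hspb2 average was -0.19 (adjusted p = 0.115). Cryab and Hspb8, whose log2 changes differed in sign between stages, averaged -0.04 ± 0.10 (edgeR adjusted p = 0.807) and -0.03 ± 0.07 (edgeR adjusted p = 0.786).

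Hspb2 and Cryab are neighbours on opposite strands of chromosome 9. The RefSeq span of Cryab (50745951-50756636) encloses that of Hspb2 (50751072-50752354). From the nearest Cryab start beyond Hspb2, the genes point away from each other. In GENCODE M21 (GRCm38) the Hspb2 start at base 50752354 lies 553 bases from a Cryab start at base 50752907. Of 6 annotated Cryab transcripts, 1 has an exon that overlaps the Hspb2 exons on the opposite strand, over 252 bases. Whether the authors' counting used strand is not given in the sources used here, so reads in that stretch cannot be assigned to a gene with certainty. Both genes had whole-number counts in all 12 libraries.

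Although they rose together, the neighbours did so by unequal amounts. The ratio of Cryab to Hspb2 FPKM started in DMSO from 17.5 and 21.4 in GM, came to 10.5 and 12.1 at DM 24h and ended on 6.11 and 5.35 at DM 48h. In PFI-3-treated cells it went from 23.4 and 26.1 through 11.1 and 12.8 to 6.54 and 7.20. The PFI-3 libraries lay above the DMSO libraries in GM and at DM 48h and overlapped them at DM 24h. The ratio itself was not tested. The deposited mean transcript length of Hspb2, for which 2 RefSeq transcripts are listed, also moved: in DMSO it was 746 and 781 bases in GM, then 814 and 819, then 874 and 859 bases. With PFI-3 it was 723 and 749, then 776 and 768, then 852 and 849 bases. This length divides the FPKM, so Hspb2 changes over stages are smaller in FPKM than in counts.

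**Figure D5:**
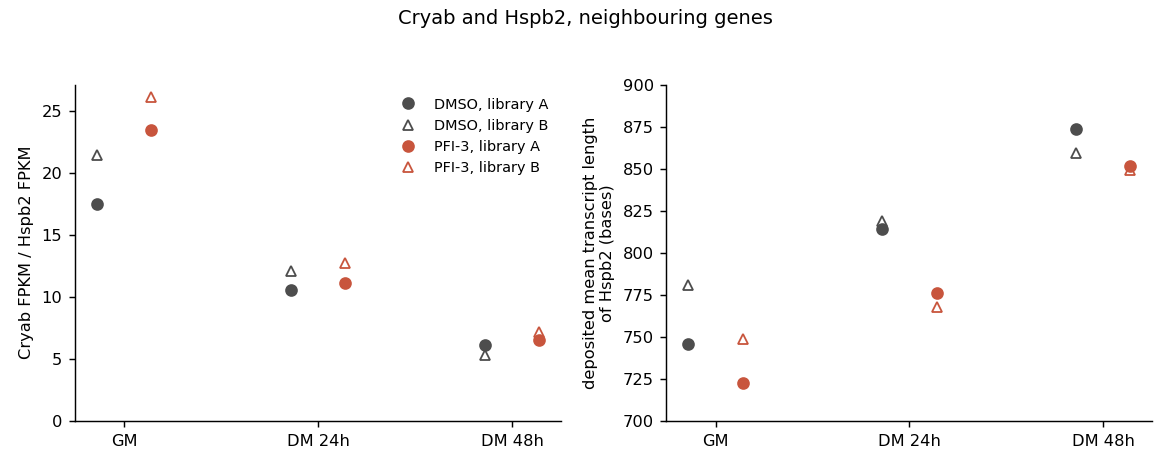
Left, ratio of Cryab to Hspb2 FPKM (axis from 0) in each library by stage; right, the deposited mean transcript length of Hspb2 in bases. The ratio runs from 17.5 to 26.1 in GM down to 5.35 to 7.20 at DM 48h, while the length of Hspb2 is longest at DM 48h.

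Over the 12 libraries the log2 CPM of Hspb2, Hspb3, Hspb7, Hspb8 and Cryab correlated with each other at Pearson r of 0.883 to 0.980. Hspb1 correlated with the other members at 0.166 to 0.354. Hspb6 ran against the 5 rising genes, at -0.725 to -0.609. These values describe libraries that share stage, treatment and depth, and carry no test. Of the 10361 genes averaging 5 CPM or more, those among the 3 whose log2 CPM followed each member most closely are named. They were Fam78a (r = 0.998), Akt2 (0.997) and Ankrd2 (0.996) for Hspb2, and Csrp3 (0.992) and Slc12a2 (0.992) for Hspb3. For Hspb7 they were Kif5b (0.994), Zfp106 (0.993) and Actn2 (0.992), for Hspb8 Myh4 (0.995), Pcgf3 (0.989) and Jph1 (0.985), and for Cryab Rogdi (0.987), Atp1b2 (0.985) and Lmo7 (0.984). Hspb1 was closest to Ybx3 (0.964), Junb (0.961) and Tmem70 (0.951), and Hspb6 to Coq7 (0.975), Lgals1 (0.963) and Rpsa (0.948).

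A list of 26 chaperone partners was set beside the family. It holds members of the Hsp70, Hsp90 and Hsp40 families, the mitochondrial chaperonins Hspd1 and Hspe1, BAG proteins, heat shock factors, the ubiquitin ligase Stub1, the autophagy receptor Sqstm1 and Synpo2, and all were tested. In DMSO, DM 24h had 5 called higher and 15 lower than GM, and DM 48h had 9 and 13. Over all genes 60.6% and 73.1% were called in either direction. With PFI-3, GM cells had 1 partner higher and 2 lower. The counts were 4 up and 3 down at DM 24h and 4 up and 5 down at DM 48h. Over all genes 11.6%, 23.6% and 27.4% were called in either direction at the 3 stages in turn. Of the 4 higher at DM 24h, Sqstm1 (0.45 ± 0.11, edgeR adjusted p = 0.0152) and Stub1 (0.25 ± 0.07, edgeR adjusted p = 0.0281) are not chaperones of the heat shock protein families. The 3 lower there included Hspd1 (-0.34 ± 0.10, edgeR adjusted p = 0.035) and Dnajb2 (-0.30 ± 0.09, edgeR adjusted p = 0.0247). With DESeq2 the DM 24h counts were 2 and 4. The median log2 changes were -0.10, -0.08 and 0.07, beside -0.01, 0.00 and 0.00 over all genes. Bag3, the co-chaperone that joins HSPB8 to HSP70, did not pass at any stage: its log2 change was 0.01 ± 0.11 in GM, -0.10 ± 0.11 after 24 h and 0.07 ± 0.11 after 48 h (edgeR adjusted p 0.991, 0.583 and 0.686). Dnajb5, an Hsp40 protein, fell with PFI-3 in GM (log2 change -0.62 ± 0.13, edgeR adjusted p = 0.0135) at DM 24h (-1.16 ± 0.09, edgeR adjusted p = 6.26e-06) and at DM 48h (-0.39 ± 0.08, edgeR adjusted p = 0.00426). In GM, Dnajb4 was higher (0.37 ± 0.09, edgeR adjusted p = 0.0249) and Hspa8 lower (-0.27 ± 0.08, edgeR adjusted p = 0.0389).

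The inducible Hsp70 gene Hspa1b was higher with PFI-3 at DM 24h (log2 change 1.08 ± 0.22, edgeR adjusted p = 0.0049) and at DM 48h (1.01 ± 0.25, edgeR adjusted p = 0.00963). Its near-identical copy Hspa1a was called higher at DM 24h alone (0.90 ± 0.25, edgeR adjusted p = 0.0226). Both had fractional counts in all 12 libraries, so the split between them is uncertain. Their summed level was 29.1 ± 1.91 CPM with DMSO and 60.6 ± 8.02 CPM with PFI-3 at DM 24h (SD, n = 2), and 19.7 ± 2.82 and 36.8 ± 0.610 CPM at DM 48h. The inducible Hsp70 pair thus lay on the other side of DMSO from Hspb3 and Hspb7. At DM 48h, Hspa2 (-0.65 ± 0.17, edgeR adjusted p = 0.0133) and Synpo2, a BAG3-binding Z-disc protein (-0.59 ± 0.12, edgeR adjusted p = 0.00343), were lower.

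Of 8 listed genes for myosin chaperones and sarcomere-associated proteins, 4 could not be compared in GM: Csrp3 and Ankrd2 were at 0 in all 4 GM libraries, and Smyd1 and Unc45b at 0 to 0.222 CPM. Of the list, 0 were called there by edgeR, DESeq2 or limma, and 0 had an unadjusted edgeR p under 0.05, which for these 4 says nothing. At DM 24h edgeR called 5 lower and 0 higher, and at DM 48h 4 lower and 0 higher (1 higher by limma on log2(FPKM + 1) each time, 0 by DESeq2). Of all genes, 11.4% and 14.0% were called lower by edgeR at DM 24h and DM 48h. The median log2 changes of the list at these DM stages were -0.999 and -0.634. At DM 24h the largest changes were in Csrp3, a Z-disc LIM protein (-2.18 ± 0.28, edgeR adjusted p = 0.000502), Ankrd2, a titin-binding ankyrin repeat protein (-1.78 ± 0.34, edgeR adjusted p = 0.00444), and Smyd1, a myosin-assembly methyltransferase (-1.63 ± 0.12, edgeR adjusted p = 2.5e-06). At DM 48h they were in Csrp3 (-1.57 ± 0.15, edgeR adjusted p = 3.75e-05), Ankrd2 (-1.25 ± 0.13, edgeR adjusted p = 6.97e-05) and the myosin chaperone Unc45b (-0.70 ± 0.10, edgeR adjusted p = 0.000258). Csrp3 and Ankrd2 are not chaperones, and each is also among the genes that followed Hspb3 or Hspb2 most closely.

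Of 8 genes for filament proteins that small heat shock proteins are known to protect, 7 were tested, and edgeR called 3 lower and 0 higher with PFI-3 at each stage (DESeq2 likewise 0 higher, limma 1 higher at DM 48h). Against this, 6.15%, 11.4% and 14.0% of all genes were called lower by edgeR at the stages in turn. The median log2 changes of the list by stage were -0.39, -0.23 and -0.32. In these, Myot, at or near 0 until DM 48h, counts with a fitted value, as does Actn2 in GM, at 0 to 0.0738 CPM there. In GM the called genes of the list were Ttn, which encodes titin (-1.05 ± 0.25, edgeR adjusted p = 0.0226), Des for desmin (-0.47 ± 0.09, edgeR adjusted p = 0.00691) and Vim for vimentin (-0.39 ± 0.08, edgeR adjusted p = 0.0099). Ttn was low in GM, at 2.04 and 2.88 CPM with DMSO and 0.946 and 1.42 CPM with PFI-3. At DM 24h the called genes were Actn2 for alpha-actinin (-2.77 ± 0.23, edgeR adjusted p = 6.43e-06), Ttn (-1.41 ± 0.09, edgeR adjusted p = 9.28e-07) and the Z-disc gene Ldb3 (-0.61 ± 0.14, edgeR adjusted p = 0.00734). At DM 48h they were Myot for myotilin, at 8.21 and 8.75 CPM with DMSO and 0.235 and 0.0781 CPM with PFI-3 (edgeR adjusted p = 1.92e-05), Actn2 (-1.82 ± 0.09, edgeR adjusted p = 1.71e-07) and Ttn (-0.50 ± 0.08, edgeR adjusted p = 0.000832). The filamin gene Flnc did not pass at any stage (edgeR adjusted p 0.213, 0.114 and 0.391). Of the family members outside the muscle set, Cryaa, Hspb9 and Odf1, only Hspb9 was listed, at up to 0.784 CPM in a library, and none was tested.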

How the data were processed

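RNA sequencing of 12 libraries was deposited as one table per library, without pooling. Each table holds RSEM-style expected counts per gene, FPKM values and a mean transcript length per gene, per the file headers, made by the authors' provider. The submitters' processing notes name HISAT, StringTie, Cufflinks, Bowtie, RSEM and DESeq2 and the build mm10, with no version or role. The authors' FPKM values divide by the deposited transcript length, so they were used to compare levels between genes. A gene missing from a table was taken as 0. Genes listed in a single library of their group, 6963 cases, had a count of at most 5 in 97.0% of them.

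After rounding of the expected counts to whole numbers, differences were tested by quasi-likelihood in edgeR 4.0.16 (R 4.3.3), scaled by TMM and filtered by filterByExpr, in a model of 6 groups over 12 libraries, with an additive model of stage and treatment for the average effect. P-values were Benjamini-Hochberg adjusted over all 12545 genes, and genes were called under 0.05. Standard errors come from the same test, and CPM uses TMM-scaled totals of the deposited counts. Alternatives were DESeq2 1.42.0, other size factors and filters, limma 3.58.1 on log2(FPKM + 1) and log2(FPKM + 0.1), a replicate block, only the libraries compared, and each library left out. The named genes are the 7 members, fixed lists with at most 3 called genes per comparison and Bag3, and the 3 genes most correlated with each member, of which 1 is not reported here. Flnc, named from a list beyond this rule, was chosen after its values were seen. The members and lists were chosen with earlier results of these data known. Python 3.11.15 drew the figures.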

Additional observations from a re-analysis of the deposited data

Results flagged for a closer look

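For 4 of the genes, in 5 comparisons, a test of the difference itself (edgeR interaction contrast) found unequal PFI-3 effects at 2 stages. For Hspb8 the effect at DM 24h was below that in GM by -0.46 (log2, adjusted p = 0.0293), and at DM 48h it was above that at DM 24h by 0.44 (adjusted p = 0.0114). For Cryab the effect at DM 48h was below that in GM by -0.64 (adjusted p = 0.0156), with PFI-3 above DMSO in GM and under it at DM 48h. For Hspb2 the same difference was -0.57 (adjusted p = 0.028). For Hspb1 the effect at DM 48h was below that at DM 24h by -0.54 (adjusted p = 0.0139). No sample was tested for standing apart, because each group has 2 libraries.

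Leaving out 1 library ended these calls in part. The Hspb8 difference between DM 24h and GM was lost without any of the 8 DM libraries (adjusted p 0.0563 to 0.127). The Hspb8 difference between DM 48h and DM 24h was lost without 5 of the 8 DM libraries, namely DM 24h DMSO A and B, DM 24h PFI-3 B, DM 48h DMSO B and DM 48h PFI-3 B (adjusted p 0.0515 to 0.0666). The Hspb1 difference was lost without DM 24h DMSO A or B, DM 24h PFI-3 B, DM 48h DMSO B or DM 48h PFI-3 A (adjusted p 0.0577 to 0.0716). The Hspb2 difference was lost without DM 48h DMSO B, DM 48h PFI-3 A or B, GM DMSO A or GM PFI-3 B (adjusted p 0.0714 to 0.0906). The Cryab difference was lost without DM 48h DMSO A or DM 48h PFI-3 A (adjusted p 0.064 to 0.0793).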

How the results depend on the processing

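The members called in DMSO over stages numbered 7, 6 and 7 and, for PFI-3 at DM 48h and averaged over stages, 5 and 5, all within 1.5 times of these counts under every alternative run. For PFI-3 in GM, 2 members were called, and 0 in a fit of only the libraries compared, which called 0.306% of all genes against 11.6% in the reported fit. For PFI-3 at DM 24h, 5 were called, and 3 with DESeq2, which called 18.2% of all genes against 23.6%. For the effect at DM 24h against GM, 1 was called, but 2 with DESeq2, 3 with limma on log2(FPKM + 0.1), 2 with limma on log2(FPKM + 1), and 0 with only the libraries compared (0.733% of all genes against 3.37%). For DM 48h against GM, 2 were called, but 1 with DESeq2, 4 with limma on log2(FPKM + 1), and 0 with only the libraries compared (8.23% of all genes against 14.5%). Beyond these shares the cause was not tested. With 1 library left out at a time, the counts ran from 1 to 3 in GM, 3 to 5 at DM 24h, 4 to 6 at DM 48h, 0 to 3 for DM 24h against GM, 0 to 2 for DM 48h against GM and 0 to 2 for DM 48h against DM 24h. The share of all genes called also changed between these fits, so the counts cannot be read as a trait of the members alone. How far that share accounts for them was not tested. A group left with 1 library is assumed to vary like the others.

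Some values changed sign. With limma at pseudocounts of 0.1 and 1, the average effect was 0.044 and 0.043 for Cryab and 0.043 and 0.043 for Hspb8, and the GM effect on Hspb2 was 0.12 and 0.11. These fits use FPKM without TMM scaling, and their medians over all genes also lay higher. For the average effect the medians were 0.077 and 0.063, against -0.0035 in the reported fit. In GM they were 0.081 and 0.063, against -0.010. Whether this accounts for the changed signs was not tested. On log2(FPKM + 1) the difference in effect between DM 48h and DM 24h was -0.52 for Hspb3 and -0.56 for Hspb7 (adjusted p = 0.0179), against 0.31 and 1.11; a pseudocount of 1 exceeds these genes' FPKM with PFI-3 at DM 24h. Signs also changed without 1 library, with ranges over all libraries left out in turn of -0.13 to 0.011 for the Cryab average, -0.075 to 0.0097 for the Hspb8 average, -0.11 to 0.053 for Hspb2 in GM, -0.089 to 0.86 for Hspb3 at DM 48h against DM 24h, -0.058 to 0.55 for Hspb6 at DM 24h against GM, and -0.11 to 0.072 for Hspb8 at DM 48h against GM.

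Same-letter libraries deviated alike from their group means in GM, with a correlation over 10367 genes of 0.498. The correlation was 0.0147 for DM 24h and 0.0464 for DM 48h. The labels do not say what the letters mark, and the reported fit holds no replicate block. With a replicate block, 2, 5 and 6 members were called for PFI-3 at the 3 stages in turn, and 2 for the effect at DM 24h against GM. With a replicate block within each stage these counts were 2, 6, 7 and 2, in fits that called 7.43%, 45.6%, 48.5% and 6.4% of all genes, against 11.6%, 23.6%, 27.4% and 3.37% in the reported fit. The Cryab effect at DM 24h against GM passed with a block (edgeR adjusted p = 0.0413) and with a block within each stage (0.00993). The latter could not be fitted for the comparisons of stages in DMSO. Depth limits Hspb3 and Hspb7 most, at 23 counts or fewer per library in GM and at DM 24h.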
